A study of Mus musculus with 36 samples.

Results

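Newborn whole brain of B6 mice was compared with newborn whole brain of A/J mice, 2 inbred laboratory strains, at postnatal day 0.5. The comparison used 12 of the 36 arrays of the series, namely 6 titled as B6 and 6 titled as A/J, each hybridised with RNA of 1 brain on an Illumina Sentrix Mouse-6 BeadChip. Another line, a congenic strain with 6 arrays of the same kind, entered the probe filter, the normalization and the estimate of spread, and is not described. Neither group carried an engineered allele or received a treatment according to the labels, the sex of the pups is not stated in them, and no litter is named. By its title the series is about Rnf41 and its links to behaviour and to seizures, and the strain comparison asks which genes differ in level between the brains of its parental strains.

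Inbred strains are fixed for different alleles at many loci, so a gene can differ in transcript level, in splice form, in copy number or in the sequence that a probe is meant to bind. A short oligonucleotide probe reads all of these as a difference in brightness. Newborn brain is rich in immature neurons that are growing axons, still has dividing progenitors, and holds circulating red cells unless it is perfused.

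The deposited signal is a background-corrected brightness in arbitrary units, which can fall below 0, and a probe was taken as detected at a detection p under 0.01. Between 14415 and 15737 of 46116 probes were detected on each of the 12 arrays. Apart from 560 control probes, 15883 probes were detected on 6 or more of the 18 newborn arrays and were tested with limma. Differences are B6 minus A/J on the scale of log2 of the signal plus 75, and folds are of that shifted signal, which understates the change of dim probes. A probe counts as different at a Benjamini-Hochberg adjusted p under 0.05. The 6 A/J arrays had mean correlations of 0.9792 to 0.9879 with the other arrays of their line. B6 brains 1 and 4 were lower, at 0.9661 and 0.9596, against 0.9792 to 0.981 for the other 4 B6 brains. A/J brain 6 gave an Xist signal of 7076.6, against −23.8 to 19.3 in the other 11 brains. Its signals for the Y-linked genes Eif2s3y and Kdm5d were −7.3 and −2.9, against lowest values of 1496.8 and 233.2 in the others. Xist is the long RNA of the inactive X chromosome, so this brain differs in sex-linked transcripts from the other 11.

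Over all tested probes, 2558 differed between the strains, which is 16.1% of 15883. Of these, 1289 (8.12%) were higher and 1269 (7.99%) lower in B6. Names could be read for 4651 of the tested probes, from a number in the probe identifier, and 1853 of the 2558 probes that differed stayed unnamed. The named probes represent 4147 genes, each by its brightest tested probe. Of these genes, 634 (15.3%) differed, with 304 (7.33%) higher and 330 (7.96%) lower in B6. Among the 4147, 3782 genes were detected in at least 4 of 6 brains of each strain and are described here. Another 59 genes were off in 1 strain and 306 were partly detected, and these are left aside unless named.

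Of the 3782 genes detected in both strains, 537 (14.2%) differed, with 256 (6.77%) higher and 281 (7.43%) lower in B6. The typical difference was small, with a median size of 0.47 on the log2 scale among the 537 genes, against 0.15 over all 3782. A size of at least 0.5 was reached by 235 genes (6.21%). Only 51 genes reached a size of at least 1, of which 33 were higher and 18 lower in B6. Signals of the strains did not overlap in 295 genes (7.8%), and 266 of these were among the 537. Counts of genes that differed ranged from 415 to 596 when any 1 brain was left out. Without B6 brains 1 and 4, a choice made after seeing their correlations, 556 genes differed, of which 425 were shared with the 537.

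Apart from the globins, described below, the widest differences in either direction belonged to proteins of varied roles. Prdx2, a peroxiredoxin that removes hydrogen peroxide and is abundant in red cells, had signals from 123.3 to 232.3 in A/J (median 146.3) and from 4553.5 to 4840.7 in B6 (median 4769.0). No brain of either strain came near the other strain's range, and the difference was 4.39 (SE 0.125, 20.9-fold, limma adjusted p = 2.01e-18). Cox7a2l, which helps assemble respiratory supercomplexes, ranged from 161.2 to 531.6 in A/J (median 338.5) and from 2634.2 to 4386.9 in B6 (median 3439.2). Its difference was 3.14 (SE 0.174, 8.84-fold, limma adjusted p = 8.32e-13), again with no overlap. B3galt6, a galactosyltransferase that builds the linker of proteoglycan chains, ranged from 86.0 to 123.0 in A/J and from 862.7 to 1158.5 in B6. That is a difference of 2.62 (SE 0.102, limma adjusted p = 1.2e-15), and the probe was detected in 5 of 6 A/J brains and in all 6 of B6.

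**Figure D1:**
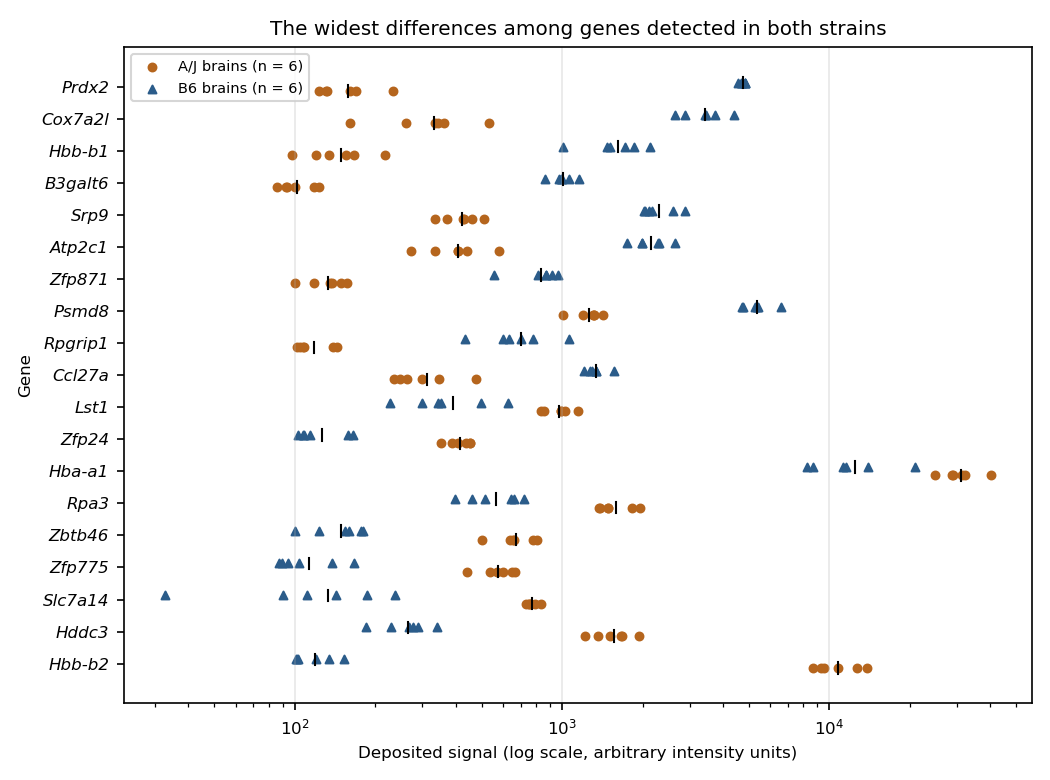
Deposited signal (x axis, log scale, arbitrary units) of each of 6 A/J brains (circles) and 6 B6 brains (triangles) for 19 of the 20 genes with the largest differences (10 in each direction), with black bars at the strain means. The strains do not overlap in any of the 19 genes; Prdx2 lies between 123.3 and 232.3 in A/J and between 4553.5 and 4840.7 in B6, while Hbb-b2 lies above 8706 in A/J and below 153 in B6.

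Another 6 of the 10 widest differences toward B6 had roles in protein handling, transport, transcription and signalling. Srp9, a subunit of the signal recognition particle, had a median of 428.2 in A/J and 2145.7 in B6, a difference of 2.26 (limma adjusted p = 1.75e-13). Psmd8, a subunit of the proteasome's regulatory particle, ranged from 1009.5 to 1419.3 in A/J and from 4718.9 to 6601.6 in B6, a difference of 2.02 (limma adjusted p = 1.26e-11). Atp2c1, the calcium and manganese pump of the Golgi, ranged from 271.5 to 580.0 in A/J and from 1749.9 to 2642.2 in B6, a difference of 2.23 (SE 0.141, limma adjusted p = 1.02e-11). A second probe of Atp2c1 gave only 0.18 and did not pass the test, so this gene's difference rests on 1 probe. Zfp871, a zinc finger protein, was 2.12 higher in B6, Rpgrip1, a protein of the photoreceptor cilium, 1.98 higher, and Ccl27a, a chemokine, 1.90 higher. Ccl27a had the widest error of these (SE 0.481, limma adjusted p = 0.0075), although the strains did not overlap (234.1 to 476.3 in A/J, 1205.5 to 1558.4 in B6).

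In the other direction, Hddc3, a phosphohydrolase that degrades the starvation signal ppGpp in vitro, ranged from 1216.0 to 1934.8 in A/J and from 185.0 to 339.6 in B6. Its difference was −2.27 (SE 0.122, limma adjusted p = 4.92e-13). Slc7a14, a member of a family of cationic amino acid transporters, ranged from 731.5 to 835.0 in A/J and from 32.7 to 237.4 in B6, where 4 of 6 brains had a detected signal. Its difference was −2.10 (SE 0.167, limma adjusted p = 7.78e-10). Rpa3, the smallest subunit of the single-stranded DNA binding protein RPA, was also lower, at −1.38 (limma adjusted p = 8.78e-09). The transcription regulators Zfp775, Zbtb46 and Zfp24 stood at −1.80, −1.74 and −1.29, and Zfp775 was detected in 4 of 6 B6 brains. Lst1, a membrane protein of leukocytes encoded in the histocompatibility region, stood at −1.22. None of these genes overlapped between the strains.

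Globin probes gave the widest difference of all, and in opposite directions. The beta globin genes of mice lie in a cluster on chromosome 7 that differs in haplotype between inbred strains. Hbb-b2 ranged from 8706.1 to 13801.3 in A/J (median 10142.5) and from 100.9 to 152.2 in B6 (median 111.3). The difference was −5.79 (SE 0.124, 55.4-fold, limma adjusted p = 6.54e-21). Its neighbour Hbb-b1 went the other way, from 97.4 to 218.1 in A/J to 1010.3 to 2126.1 in B6, a difference of 2.91 (SE 0.155, limma adjusted p = 3.77e-13). The adult beta globins are near-identical copies, so a probe can read more than 1 of them. Hba-a1, an alpha globin on chromosome 11 that also has a near-identical copy, ranged from 24925.5 to 40162.4 in A/J and from 8240.6 to 20971.3 in B6. The log2 difference was −1.37 with no overlap (SE 0.212, limma adjusted p = 3.91e-05). Fewer red cells and less globin RNA per red cell cannot be told apart in whole tissue. Of 26 genes listed for haemoglobin and red cell development, 6 were on the array, and the probes of the embryonic globins Hba-x and Hbb-y and of Car1 were detected in no brain. The summed signal of the 6 ranged from 33833.8 to 53033.5 in A/J and from 9428.3 to 23291.6 in B6. Prdx2 moved against Hba-a1, and the part of red cells in its difference was not tested.

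Marker genes of brain tissue gave no difference that passed the test. Of 20 listed neuronal and progenitor markers, 15 were measured in both strains, and neither direction held a gene past the threshold, also at an unadjusted limma p under 0.05 (0 of 15). Dcx, which binds microtubules in migrating neurons, differed by −0.02, Gap43, a protein of growing axons, by 0.06, and Syt1, the calcium sensor of vesicle release, by 0.07. The probes of Nefl and Snap25, both expressed in brain, were detected in no brain, as was the probe of the astrocyte filament Gfap. Only 13 markers of astrocytes, the oligodendrocyte lineage, microglia, vessels and choroid plexus were measured in both strains, and none passed the test (2 at an unadjusted limma p under 0.05). Among microglial markers, the complement genes C1qa and C1qb differed by −0.01 and 0.09 (limma adjusted p = 0.983 and 0.745). Csf1r, the growth factor receptor of microglia, stood at −0.39 (limma adjusted p = 0.0668). Lyz2, a lysozyme of macrophages, was detected in 6 A/J brains and 3 B6 brains and was lower in B6 (−0.63, limma adjusted p = 0.00158). Col1a2, a collagen chain of meninges and vessel walls, went the other way, detected in no A/J brain (−11.1 to 22.3) and in 6 B6 brains (113.5 to 415.1, limma adjusted p = 6.34e-08). Of the same list, Col1a1 (0.07), Col3a1 (−0.22), Dcn (−0.16) and Pecam1 (0.04) were detected in 6 brains of each strain and did not pass.

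Among the pathway and marker lists with 5 or more measured genes, cholesterol synthesis had the largest share past the threshold. The brain makes its own cholesterol, since the sterol in plasma lipoproteins does not cross the blood-brain barrier. The pathway runs from acetyl-CoA through mevalonate to squalene and then to the sterols, and it is switched on by SREBP2, a transcription factor held in the endoplasmic reticulum by INSIG proteins when sterol is plentiful. Of 26 listed genes, 13 were measured in both strains, 7 were higher in B6 and none was lower (53.8%, against 14.2% of all measured genes). The median difference of the 13 was 0.31, against −0.03 over all 3782. The same number were higher without A/J brain 6, and 5 to 7 were higher when any 1 brain was left out. Without B6 brains 1 and 4 the number was also the same, but Acat2 lost its call there, so the genes were not all the same.

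At the entry of the pathway, Acat2, which condenses acetyl-CoA, rose by 0.31 in B6 (limma adjusted p = 0.0401). Leaving out any of 10 of the 12 brains ended that call, with adjusted p up to 0.0977. Hmgcs1, which makes HMG-CoA, ranged from 18988.9 to 30949.3 in A/J (median 23893.7) and from 26114.4 to 41274.5 in B6 (median 36950.1). Its ranges overlapped, with a difference of 0.52 (SE 0.138, limma adjusted p = 0.0108).

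Farther along, Fdps, which makes farnesyl diphosphate, ranged from 4292.8 to 5197.4 in A/J and from 5176.4 to 7616.2 in B6, a difference of 0.50 (SE 0.113, limma adjusted p = 0.00285). Lss, which closes the sterol ring, was 0.41 higher (SE 0.124, limma adjusted p = 0.0244), a call that ended without any 1 of A/J brains 1 and 5 and B6 brains 2, 3 and 5 (adjusted p up to 0.0665). Cyp51, the lanosterol demethylase, ranged from 1701.9 to 2085.7 in A/J and from 2623.0 to 2988.8 in B6 with no overlap. Its 2 probes agreed, with 0.51 for the brighter (limma adjusted p = 0.000181) and 0.45 for the other (limma adjusted p = 0.00114). Nsdhl, a later demethylation enzyme encoded on the X chromosome, was 0.52 higher (SE 0.142, limma adjusted p = 0.0129). Of its 3 tested probes 2 passed, and the second brightest gave 0.32 and did not (limma adjusted p = 0.128). A/J brain 6, the brain with the Xist signal, had an Nsdhl signal of 4328.0, inside the B6 range, whereas the other 5 A/J brains lay between 2548.2 and 2815.4.

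The other 6 measured genes of the pathway did not pass the test by their brightest probe. Of the enzymes among them, Idi1 differed by 0.21 (SE 0.232) and Tm7sf2 by 0.07. Insig1, a regulator, differed by −0.07 (SE 0.116) and by −0.03 with its second probe. Srebf2, the gene of SREBP2, has no settled value, since its brightest probe differed by −0.01 (SE 0.103) and its second probe was higher in B6 by 0.48 (limma adjusted p = 0.0239). Stard4, a sterol carrier protein, differed by 0.18 (SE 0.139).

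**Figure D2:**
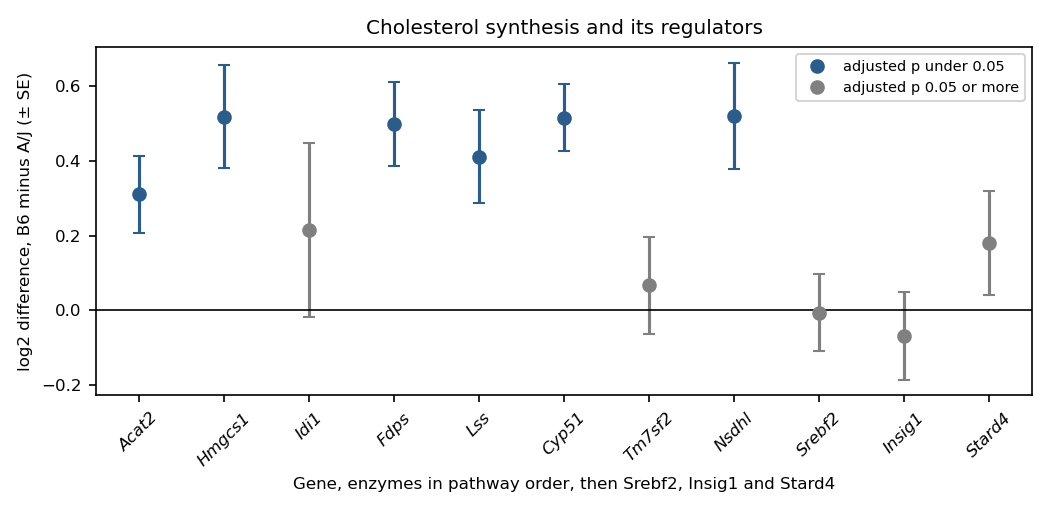
Difference in log2 signal, B6 minus A/J (y axis, with bars of 1 SE), of 11 of the 13 measured genes of cholesterol synthesis and its regulators (x axis, enzymes in pathway order). Blue points passed the limma test and grey points did not; the 6 blue points lie between 0.31 and 0.52. Each gene is drawn by its brightest probe, including Srebf2 at −0.01, whose second probe gave 0.48.

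Promoters of the list were searched for the sterol response element, the sequence SREBP2 binds, since the pathway's enzymes moved together. RefSeq promoters (build GRCm38.p6, 250 bases before to 50 bases after the annotated start) were found for 9 of the 13 genes. The letters TCACNCCAC, read on both strands, were present in 1 of the 9, that of Hmgcs1, 137 bases before the start. By comparison, 1.24% of 32851 promoters hold them. Of 3044 measured genes with a promoter, 1.54% hold them in at least 1 promoter. The Hmgcs1 promoter is shown for its match, which is in capitals, as the plus strand of chr13:119690101-119690400.
Hmgcs1: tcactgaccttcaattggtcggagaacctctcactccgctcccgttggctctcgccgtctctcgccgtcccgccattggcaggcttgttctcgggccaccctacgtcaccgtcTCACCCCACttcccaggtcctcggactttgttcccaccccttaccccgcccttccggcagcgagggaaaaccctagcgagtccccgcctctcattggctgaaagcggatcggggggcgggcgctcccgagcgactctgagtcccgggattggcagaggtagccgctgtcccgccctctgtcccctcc
The match describes these letters alone, and a promoter without it may hold other forms of the element.

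Most synaptic genes did not pass the test, and those that did were mostly higher in B6. Among glutamate receptors and scaffold proteins of the postsynaptic density, 5 of 20 measured genes differed (25.0%, against 14.2% of all measured genes), 4 higher and 1 lower. Over fits that each left out 1 brain, 3 to 5 were higher and at most 1 was lower. Grm5, the metabotropic receptor mGluR5, ranged from 827.4 to 1433.0 in A/J (median 1046.0) and from 1158.9 to 2663.2 in B6 (median 2359.3). The strains overlapped only through B6 brain 1, at 1158.9, and the difference was 0.95 (SE 0.176, limma adjusted p = 0.000381). Dlg4, the scaffold PSD-95, ranged from 285.8 to 462.2 in A/J and from 529.1 to 997.1 in B6 without overlap, a difference of 0.69 (SE 0.148, limma adjusted p = 0.00166). Nlgn3, a postsynaptic adhesion protein, was 0.48 higher, and Homer2, a scaffold for group I metabotropic receptors, 0.41 higher. The call of Nlgn3 ended without A/J brain 2, A/J brain 4 or B6 brain 4 (adjusted p up to 0.0652), and that of Homer2 without both B6 brains 1 and 4. Gria1, a subunit of AMPA receptors, was lower by one of its 2 probes (−0.32, limma adjusted p = 0.0274) and stood at −0.05 by the other. Its call ended without any 1 of A/J brains 1, 3 and 6 and B6 brains 1 and 4 (adjusted p up to 0.0616).

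On the presynaptic side, 3 of 22 measured genes of vesicle release were higher and none lower (13.6%, against 14.2% of all measured genes). When any 1 brain was left out, 1 to 4 were higher. Sv2a, a glycoprotein of all synaptic vesicles, ranged from 4595.0 to 5256.9 in A/J and from 5780.8 to 8358.0 in B6, a difference of 0.47 (SE 0.103, limma adjusted p = 0.00204) without overlap. Doc2b, a calcium sensor, was 0.51 higher (limma adjusted p = 0.0223), and its call ended without A/J brain 1, A/J brain 3 or B6 brain 4 (adjusted p up to 0.0629). Slc17a7, the vesicular glutamate transporter VGLUT1 of cortical and hippocampal neurons, was 0.64 higher (SE 0.201, limma adjusted p = 0.0303). A/J brain 1 held its highest signal of all 12 brains, 455.4, against 99.1 to 161.8 in the other A/J brains and 174.6 to 417.8 in B6. Leaving out any of 8 other brains ended its call (adjusted p up to 0.083), as did a fit of the 2 strains alone (0.062).

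Of 8 measured genes of monoamine and neuropeptide signalling, 2 were higher and none lower (25.0%, against 14.2% of all measured genes), and leaving out single brains gave 2 to 3 higher and at most 1 lower. Cckbr, a cholecystokinin receptor, ranged from 98.0 to 211.3 in A/J and from 194.4 to 492.4 in B6, a difference of 0.92 (SE 0.156, limma adjusted p = 0.000131). Drd1, the D1 dopamine receptor of striatal neurons, ranged from 320.4 to 435.6 in A/J and from 335.7 to 631.8 in B6, a difference of 0.49 (SE 0.142, limma adjusted p = 0.0181). Both of its extremes toward the other strain came from brains numbered 1, since the remaining 5 A/J brains lay at or below 363.1 and the remaining 5 B6 brains at or above 532.5. Of 5 measured genes of GABA signalling, 1 was higher and none lower, against 14.2% of all measured genes.

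Of 17 measured ion channel genes, 3 were lower and 1 was higher (23.5%, against 14.2% of all measured genes), with a median of 0.10 over the 17. Leaving out single brains gave 0 to 2 higher and 1 to 3 lower. Cacna1c, the pore of an L-type calcium channel, ranged from 445.0 to 548.0 in A/J and from 235.2 to 452.9 in B6, a difference of −0.44 (SE 0.123, limma adjusted p = 0.0147). Its auxiliary subunit gene Cacna2d1 was lower (−0.41, limma adjusted p = 0.0465), whereas Cacna2d2, another auxiliary subunit, was higher (0.40, limma adjusted p = 0.0278). Kcnn2, a calcium-activated potassium channel, was lower (−0.28, limma adjusted p = 0.0423). These calls were fragile. Leaving out 1 brain ended that of Cacna2d1 for 8 of the 12 brains (adjusted p up to 0.114), of Kcnn2 for 9 (up to 0.0967) and of Cacna2d2 for 5 (up to 0.0688), and leaving out both B6 brains 1 and 4 ended all but that of Kcnn2.

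Axon guidance and adhesion genes counted 4 lower and 1 higher of 24 measured (20.8%, against 14.2% of all measured genes). Cntn2, an adhesion molecule of outgrowing axons, ranged from 2982.3 to 5142.1 in A/J (median 4802.3) and from 2476.0 to 3398.9 in B6 (median 2561.5). The difference was −0.70 (SE 0.156, limma adjusted p = 0.00273), and the strains overlapped only through A/J brain 1. Its second probe gave −0.21 and did not pass. Sema4g, a semaphorin, differed by −0.53 (limma adjusted p = 0.0013) without overlap. Ncam1, the neural cell adhesion molecule, differed by −0.50 (limma adjusted p = 0.00176), and Ephb2, a receptor for ephrin-B ligands, by −0.37 (limma adjusted p = 0.0174). Dpysl2, a tubulin-binding protein that acts downstream of semaphorins, was higher by 0.24 (limma adjusted p = 0.0452), a call lost without any of 10 of the 12 brains (adjusted p up to 0.119). Forebrain patterning and neurogenic transcription factors had no gene past the threshold in limma's test among 25 measured, and 7 had an unadjusted p under 0.05 (28.0%, against 25.9% of all measured genes). Without B6 brains 1 and 4, Nkx2-1 and Mef2c were called higher and Ebf3 lower.

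**Figure D3:**
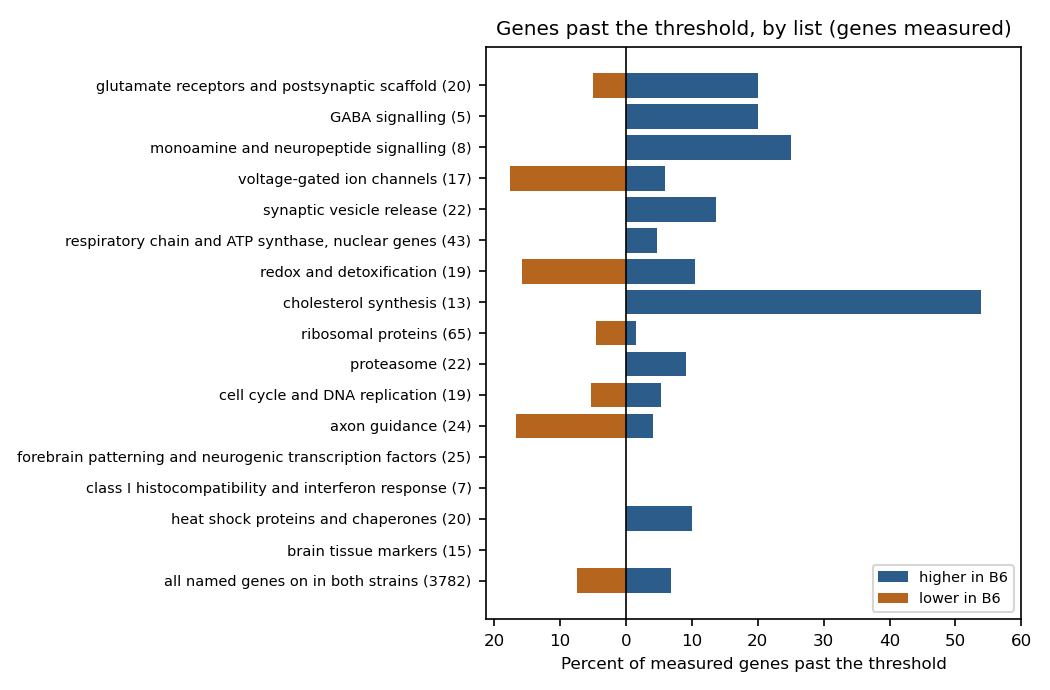
Percent of the measured genes of each list (number measured in parentheses) that passed the limma test, drawn to the right where higher in B6 (blue) and to the left where lower (brown), for lists with 5 or more measured genes and for all 3782 genes. Cholesterol synthesis reaches 53.8% on the right, while the 43 respiratory chain genes reach 4.65% and the 25 forebrain transcription factors 0.

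Large housekeeping groups had fewer genes past the threshold than the 14.2% of all measured genes. Of 43 nuclear genes of the respiratory chain and ATP synthase, 2 were higher, Cox7a2l and Atp5g2, and none lower (4.65%). Atp5g2, which encodes a copy of the membrane ring subunit of ATP synthase, was 0.39 higher (limma adjusted p = 0.0433), and leaving out any of 8 of the 12 brains ended that call (adjusted p up to 0.118). Of 65 ribosomal protein genes, 1 was higher and 3 were lower (6.15%), though 1 to 7 were lower when a brain was left out. Rpl21, of the large subunit, was higher by both of its probes (0.78 and 0.63). Rps9, of the small subunit, was lower by its brightest probe (−0.40, limma adjusted p = 0.00754) and higher by the other (0.88, limma adjusted p = 3.74e-06), so it has no settled direction. Ribosomal protein genes have many processed copies in the genome, and a probe may read more than 1 transcript. Of 22 proteasome genes, Psmd8 and Psmb5, a catalytic subunit (0.44, limma adjusted p = 0.0119), were higher. Of 20 heat shock and chaperone genes, Hspa12a, an atypical member of the HSP70 family, was higher by 1.27 (limma adjusted p = 7.4e-07), and Dnajb2, a neuronal cochaperone, by 0.38 (limma adjusted p = 0.024). The call of Dnajb2 ended without any 1 of 5 brains (adjusted p up to 0.0664).

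Redox and detoxification genes counted 5 of 19 past the threshold (26.3%, against 14.2% of all measured genes), in both directions. Beside Prdx2, Glrx, the cytosolic glutaredoxin that reduces disulfides with glutathione, ranged from 494.2 to 796.2 in A/J and from 1583.0 to 2757.0 in B6, a difference of 1.69 (SE 0.134, 3.22-fold, limma adjusted p = 7.1e-10). Its mitochondrial relative Glrx2 went the other way, from 2646.9 to 3322.1 in A/J to 1661.2 to 2298.3 in B6 (−0.51, limma adjusted p = 0.00195). Neither gene overlapped between the strains. Sod1, the cytosolic superoxide dismutase, and Gstm1, a glutathione transferase, were lower by smaller amounts (−0.36 and −0.39, limma adjusted p = 0.0263 and 0.0262). Leaving out 1 brain ended the call of Sod1 for 6 brains (adjusted p up to 0.077) and that of Gstm1 for 5 (up to 0.0742). Of 19 cell cycle genes, 10.5% differed. Rpa3 was lower and Cdkn1a, the inhibitor p21, was 0.30 higher (limma adjusted p = 0.0434). The call of Cdkn1a was lost without any of 10 brains (adjusted p up to 0.112).

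Genes listed for known differences between these strains were few on the array. Entpd4, a nucleotide diphosphatase of the Golgi, ranged from 1874.1 to 2120.9 in A/J and from 2740.2 to 3796.5 in B6, a difference of 0.73 (SE 0.093, limma adjusted p = 2.55e-06). H2-D1 and H2-K1, the class I histocompatibility genes that differ in haplotype between the strains, were each off in 1 strain. The H2-D1 probe was detected in all 6 A/J brains and no B6 brain (limma adjusted p = 1.46e-12). That of H2-K1 was detected in 3 B6 brains and no A/J brain, but its signals overlapped (21.0 to 84.0 in A/J, 55.6 to 172.7 in B6) and the difference did not pass (0.38, limma adjusted p = 0.179). Of 7 other class I and interferon genes measured in both strains, none passed limma's test, and 4 had an unadjusted p under 0.05 (57.1%, against 25.9% of all measured genes). Without B6 brains 1 and 4, Ifitm1 and Ifitm2, interferon-induced membrane proteins, were called lower, and leaving out single brains gave at most 1 higher or 1 lower. Rnf41, an E3 ubiquitin ligase for the ErbB3 receptor, was higher in B6 by 0.81 (limma adjusted p = 0.000265). Its probe was dim, at 63.5 to 176.0 in A/J, where 5 of 6 brains had a detected signal, and 187.8 to 341.4 in B6. It was the largest difference among measured genes of chromosome 10.

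Genes that differed lay on every autosome and on the X chromosome. The measured Y-linked genes Eif2s3y and Kdm5d did not pass (limma adjusted p = 0.72 and 0.815). Over the autosomes and the X chromosome, the share past the threshold ran from 9.68% on chromosome 18 (12 of 124) to 20.1% on chromosome 17 (35 of 174). It was 11.5% on chromosome 10 (18 of 156) and 11.4% on the X chromosome (14 of 123). Chromosomes 13 (28 of 143, 19.6%), 9 (37 of 202, 18.3%) and 14 (23 of 126, 18.3%) lay next below chromosome 17. These shares are descriptions, since neighbouring genes share haplotypes. Directions were uneven on a few chromosomes. Of the 28 genes of chromosome 13, 19 were higher and 9 lower, and of the 37 genes of chromosome 11, 25 were higher and 12 lower. Chromosome 2 had 15 higher and 27 lower. Leaving out single brains moved chromosome 13 between 14 and 21 higher and between 7 and 10 lower, and leaving out both B6 brains 1 and 4 gave 24 higher and 6 lower. Other genes with the widest difference of their chromosome were Trim11, a ubiquitin ligase (1.73, chromosome 11), Atp8a1, a phospholipid flippase (1.38, chromosome 5), Celsr1, a planar polarity cadherin (1.32, chromosome 15), Twistnb, a subunit of RNA polymerase I (1.06, chromosome 12), and Cd200, a neuronal ligand that restrains microglia (1.00, chromosome 16). Firre, a long RNA of the X chromosome detected in 4 of 6 B6 brains, differed by −0.66 (limma adjusted p = 0.0273). Its call ended without any 1 of A/J brains 1 and 5 and B6 brains 3 and 4 (adjusted p up to 0.077).

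**Figure D4:**
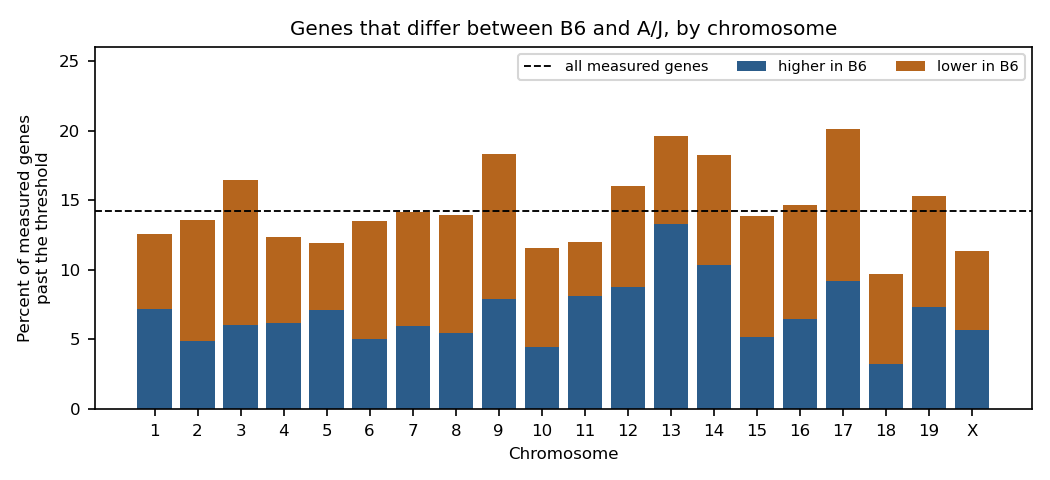
Percent of the measured genes of each autosome and of the X chromosome (x axis) that passed the limma test. Bars are stacked as higher in B6 (blue) and lower in B6 (brown), with a dashed line at 14.2%, the share over all measured genes. Chromosome 17 is highest at 20.1% and chromosome 18 lowest at 9.68%, and on chromosome 13 the blue part stands for 19 of 28 genes.

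Of the 19 genes higher on chromosome 13, 7 encode histone H2B, the core histone that pairs with H2A. The histone genes and the runs of neighbours described next were chosen after their values were seen. All 8 measured H2B genes lie in the replication-dependent histone cluster of chromosome 13. Of these, 7 were higher in B6 and none lower (87.5%, against 14.2% of all measured genes). Their differences ran from 0.48 for H2bc22 to 1.14 for H2bc7, and the eighth, H2bc12, stood at 0.15 (limma adjusted p = 0.533). H2bc7 ranged from 110.1 to 366.9 in A/J and from 408.7 to 757.8 in B6 with no overlap (SE 0.208, limma adjusted p = 0.000341). H2bc15 ranged from 136.1 to 247.3 in A/J and from 330.6 to 613.0 in B6, also with no overlap (0.90, limma adjusted p = 5e-05). The H2B genes are near-identical copies whose probes can read each other's transcripts, so 7 genes are not 7 separate observations, and which copies differ is uncertain. Of 8 measured H2A genes, 5 of them on chromosome 13, none passed limma's test. At an unadjusted limma p under 0.05, 2 did (25.0%, against 25.9% of all measured genes). Of 4 H3 genes only H3c4 passed limma's test, at −0.49 (limma adjusted p = 0.0176). The count of 7 fell to 4 without A/J brain 1, A/J brain 2, A/J brain 5 or B6 brain 4, and to 4 without both B6 brains 1 and 4. Cell cycle genes, given above, counted 1 higher and 1 lower.

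Runs of 3 or more measured neighbours that all differed occurred 15 times along the genome. Most of these runs mixed genes higher and lower in B6. How many runs would occur with the genes in random order was not tested. On chromosome 12 a run of 4 began with 3 genes of an imprinted domain, in which Dlk1 is read from the paternal chromosome and the noncoding RNAs Meg3 and Rian from the maternal one. Dlk1, a Notch-related ligand, ranged from 569.9 to 966.7 in A/J and from 393.5 to 575.0 in B6, a difference of −0.57 (SE 0.137, limma adjusted p = 0.00497). Meg3 ranged from 922.3 to 1244.2 in A/J and from 213.2 to 652.0 in B6, a shifted signal 2.00-fold lower in B6 (SE of the log2 difference 0.165, limma adjusted p = 9.24e-05) with no overlap. Rian ranged from 609.0 to 764.9 in A/J and from 722.0 to 1608.7 in B6, a difference of 0.69 (SE 0.128, limma adjusted p = 0.000422). Both maternally read RNAs thus differed in opposite directions, each by 1 probe. Dync1h1, the heavy chain of cytoplasmic dynein next in order, differed by −0.38 (limma adjusted p = 0.0489), and leaving out any of 9 brains ended its call (adjusted p up to 0.118). Snhg14, the noncoding host RNA of another imprinted region, on chromosome 7, was also lower (−0.55, limma adjusted p = 0.000817) with no overlap.

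Among the other runs, 2 on chromosome 7 held only genes lower in B6. The first joined Arrdc4, an arrestin-related protein (−1.12), to Chd2, a chromatin remodeller (−0.63), and Chaserr, the noncoding RNA beside Chd2 (−0.35). Chaserr is known in mice to restrain Chd2, and here both were lower, although Chaserr overlapped between the strains. Its call ended without any of 7 brains (adjusted p up to 0.0764). A second probe of Chaserr gave −0.34 and did not pass (limma adjusted p = 0.246). The other joined Hddc3 to Man2a2, a Golgi mannosidase (−0.78), and Iqgap1, a scaffold of the actin cytoskeleton (−0.41). The call of Iqgap1 ended without both B6 brains 1 and 4. Man2a2 was detected in 5 of 6 B6 brains, and its second probe gave −0.32 and did not pass (limma adjusted p = 0.186). On chromosome 4, Ccl27a lay between Il11ra1 and Il11ra2, receptor genes for interleukin 11, and all 3 were higher (0.40 for Il11ra1 and 0.33 for Il11ra2). This stretch is known to be duplicated to different extents in inbred strains, and the receptor genes are near-identical copies that a probe may not separate. The calls of both receptor genes ended without A/J brain 1 or B6 brain 4 (adjusted p up to 0.0852 and 0.0713).

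Among the 10 families defined by gene symbol that had 20 or more measured genes, the share past the threshold ran from 2.70% for the ribosomal proteins named Rpl to 19.2% for the coiled-coil proteins named Ccdc (2 higher and 3 lower of 26). Over all measured genes the share was 14.2%. Of 84 measured zinc finger genes named Zfp, 3 were higher and 8 lower (13.1%), with a family median of −0.13 against −0.03 over all genes. Genes with symbols starting in Slc, mostly solute carriers, counted 4 higher and 4 lower of 62 (12.9%). Transmembrane proteins named Tmem counted 3 higher and 1 lower of 45 (8.89%). Genes with symbols starting in Eif, not all of them initiation factors, counted 1 higher and 2 lower of 27 (11.1%). These were Eif2ak1, higher, and Eif4ebp3 and Eif4b, lower.

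Genes measured by more than 1 probe show how far a difference depends on the probe. Both or all tested probes were detected in both strains for 376 genes, and the brightest passed the test in 50 of them. The second brightest probe passed in the same direction in 6 of the 50, passed in the opposite direction in 4 and did not pass in 40. It had the same sign in 35 of 50 and showed a median of 0.387 of the brightest probe's difference. By comparison, a second probe passed in 35 of the 326 genes whose brightest probe did not. All tested probes passed in the same direction for 5 genes. These were Cyp51 and Rpl21, higher in B6, and Scp2, a peroxisomal sterol carrier and thiolase (−0.76 and −0.62), Sfxn2, a mitochondrial carrier (−0.65 and −0.82), and Cilk1, a kinase of the cilium (−0.51 and −0.46), lower in B6. Scp2 ranged from 348.9 to 462.9 in A/J and from 155.0 to 231.4 in B6 with no overlap. The probes passed in opposite directions for Rps9, Gnb4, Tkt and Zfp467. Gnb4, a G protein beta subunit, stood at −1.19 by its brightest probe and 0.73 by the other, and Tkt, the transketolase of the pentose phosphate pathway, at 0.68 and −0.29. Probe sequences were not used here, and the part played by bases that differ between the strains under a probe, or by splice forms, was not tested.

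**Figure D5:**
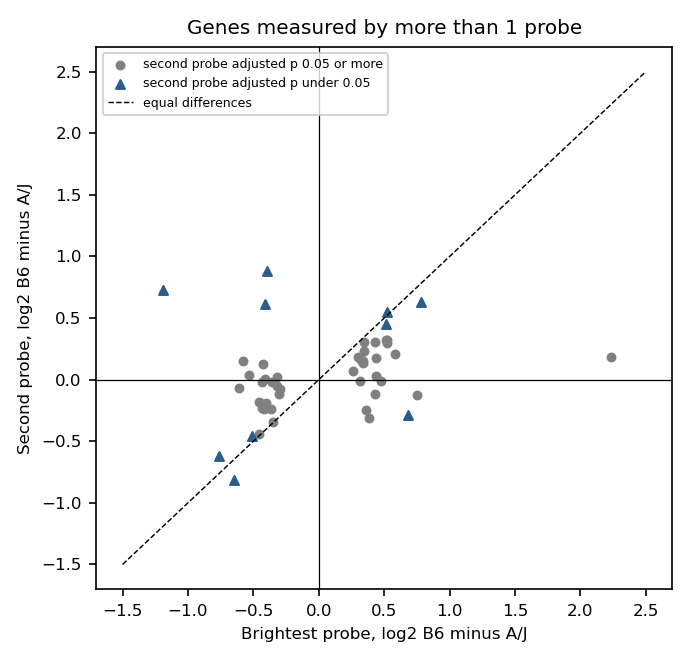
Log2 difference, B6 minus A/J, of the second brightest probe (y axis) against that of the brightest (x axis) for 50 genes whose brightest probe passed the limma test, with blue triangles where the second passed too and a dashed line of equal differences. Most points lie nearer 0 on the y axis than the dashed line, 6 triangles lie in the quadrants of equal sign and 4 in those of opposite sign, and Atp2c1 stands at 2.23 and 0.18.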

How the data were processed

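Total RNA of single brains was labelled with biotin and hybridised to bead arrays. The authors deposited, per array, a signal intensity per probe and a detection score. The submitters' processing notes name BeadStudio. The sources used here give neither its version and settings nor the chip of each array, so no batch could be tested. Detection is a deposited fraction, and 1 minus it was read as a detection p. The deposited series table held the same log-free intensity values as the array files (largest difference 0).

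Signals were raised by 75, so that the lowest (−59) became 16, taken to log2 and quantile normalized over all 18 newborn arrays of 3 lines. limma 3.58.1 (R 4.3.3) fitted 1 coefficient per line with lmFit and eBayes, and Benjamini-Hochberg adjustment ran over 15883 probes. Spread was thus shared by 3 lines. The fit was tested on simulated data. Brains are separate samples per the labels' protocols. The replicate numbers come from the sample titles. No label pairs them, and no block was used.

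Probes were named where the identifier held a number of 5 or 6 digits after 1 or 2 leading zeros, read as an NCBI Gene ID. Of 11897 such numbers, 82.6% are in the gene table (assembly GRCm38.p6), and 9832 probes were named. All other numbers after the same prefix matched no better than numbers shifted by 1 to 50, and were left unnamed. Reading every such number had been planned. This naming is an inference. Genes and lists were chosen with earlier results of these data known. Named genes were the 10 widest differences each way, genes whose probes all passed in 1 direction, the 2 widest per list, the widest per chromosome, Rnf41 and known strain differences. Other genes of the fixed lists were added for their role, and those of runs, histones and opposing probes after their values were seen. Alternatives changed the floor, filter, normalization, detection rule, probe summary, arrays in the fit, and brains left out. A few genes that these rules name are not reported here.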

Additional observations from a re-analysis of the deposited data

Results flagged for a closer look

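In 10 of 112 sets of 6 brains (56 named genes in 2 strains), 1 brain stood apart from the other 5 by Dixon's criterion at 95%, which chance meets in about 1 of 20 sets. A/J brain 1 was apart in 4 genes. Its Cntn2 signal was 2982.3, against 4463.6 to 5142.1 in the other A/J brains, its Drd1 signal 435.6 against 320.4 to 363.1, its Sema4g signal 1191.8 against 740.9 to 810.2, and its Slc17a7 signal 455.4 against 99.1 to 161.8. A/J brain 6, which held the Xist signal, was apart in Nsdhl, with 4328.0 against 2548.2 to 2815.4.

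B6 brain 1 was apart in 3 genes. Its Drd1 signal was 335.7 against 532.5 to 631.8, its Entpd4 signal 2740.2 against 3429.2 to 3796.5, and its Grm5 signal 1158.9 against 2124.8 to 2663.2 in the other B6 brains. B6 brain 4 was apart in Psmd8, with 6601.6 against 4718.9 to 5399.0, and in Zfp871, with 557.5 against 815.7 to 965.6. B6 brains 1 and 4 were also the ones with the lowest correlations with their line.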

How the results depend on the processing

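Dim probes are compressed by the shift, and 6 brains a strain limit small differences. The number of probes that differed (2558) ranged from 1995 to 2750 when 1 brain was left out, and the number of genes detected in both strains (537) from 415 to 596. With no filter on dim probes, 321 genes passed, all of them among the 537, since many more probes were then tested. Requiring a log2 difference of at least 0.5 left 235. With the replicate number as a block, 2722 probes and 576 genes passed. Same-numbered brains of the strains had deviations that correlated with r from −0.032 to 0.24, and 3 of 6 B6 brains correlated best with the A/J brain of their own number, which does not establish a pairing. The block ended no other call among the named genes than that of Slc17a7 (adjusted p = 0.0522). All other alternatives gave from 484 to 621 genes and from 1745 to 2600 probes. Of 54 named genes that differed, 44 kept their call in all alternatives that measured them. Of the other 10, Rps9 changed direction when all its probes were averaged (0.24, adjusted p = 0.0681), and the cause is its 2 opposing probes. The remaining 9 lost the call in 1 or more alternatives without changing direction: Atp5g2, Cacna1c, Cacna2d1, Cdkn1a, Dnajb2, Doc2b, Drd1, Firre and Slc17a7. Without the filter, Drd1 had an adjusted p of 0.0612.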
